A study of Mus musculus with 56 samples.

Results

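The first knockdown experiment in N2a cells, a mouse neuroblastoma line, consisted of 5 RNA sequencing libraries of the 56 samples in the series. They were all samples whose titles name N2a with siFmr1 or siNT and no plasmid. In the siFmr1 group (3 libraries) a small interfering RNA (siRNA) against Fmr1 was introduced with Lipofectamine 3000. The siNT group (2 libraries) carried the label of a non-targeting siRNA and no other treatment. No genotype change, time after transfection or clone is given for either group, and nothing says that the libraries came from separate cultures, so p-values measure the spread between these libraries, which may be technical. The rest of the series covers tissues of wild-type and Fmr1 knockout mice and a separate N2a experiment in which siRNA and plasmid were introduced together. That experiment, called co-transfection here, is used below for its groups siNT pcDNA and siFmr1 pcDNA (3 libraries each), where pcDNA is a control plasmid. Whether its siRNA was the one of the first experiment is not given in the sources used here.

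Fmr1 encodes FMRP, an RNA-binding protein of neurons and many other cells that binds messenger RNAs, associates with ribosomes and is best known for holding back translation. Loss of FMRP causes fragile X syndrome. Fxr1 and Fxr2 encode its close relatives, and Mbnl1 and Mbnl2 encode muscleblind proteins, which bind RNA and steer alternative splicing.

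The libraries did not divide by siRNA. siNT 1, siFmr1 1 and siFmr1 2 resembled one another and are called set A, and siNT 2 and siFmr1 3 are called set B. These sets were recognised from expression in these same libraries, carry no label of their own, and are therefore described without a test. The Spearman correlation of gene levels was 0.991 between siNT 1 and siFmr1 1 and 0.985 between siNT 2 and siFmr1 3, but 0.883 between the 2 siNT libraries. Over the 12187 genes tested, 33.8% differed at least 2-fold between siNT 1 and siNT 2, against 2.36% between siNT 1 and siFmr1 1 and 2.95% between siNT 2 and siFmr1 3. siFmr1 2 stood in between (12.6% of genes at least 2-fold from siFmr1 1 and 17.8% from siFmr1 3). Libraries held 13273331 to 16268865 counts. The sympathetic neuroblast transcription factors Phox2a and Hand2 were present in all 5 libraries (175 to 327 and 321 to 593 CPM, read counts scaled to a common library size). Of the listed hepatocyte and haematopoietic markers, 0 were abundant enough to be tested, and 6 fibroblast markers summed to 114 to 224 CPM per library. Skeletal muscle markers (4 tested) summed to 161 to 293 CPM and glial markers (5 tested) to 235 to 478 CPM.

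Fmr1 (chromosome X, 68678541 to 68717963, GRCm38) was lower in every siFmr1 library than in every siNT library. Its counts were 1168 in siNT 1 and 326 in siNT 2. They were 210, 197 and 33 in siFmr1 1, 2 and 3. In CPM these were 77.7 and 22.4 for siNT, and 14.7, 14.7 and 2.12 for siFmr1. The groups did not overlap, yet siNT 2 lay closer to siFmr1 1 than to siNT 1. The means were 50.1 ± 39.1 CPM (SD) for siNT and 10.5 ± 7.26 CPM for siFmr1. Within set A the log2 differences from siNT 1 were -2.39 for siFmr1 1 and -2.39 for siFmr1 2, and within set B siFmr1 3 lay -3.32 from siNT 2. The log2 fold change was -2.25 ± 0.86 (SE) without regard to the sets (edgeR quasi-likelihood test, Benjamini-Hochberg (BH) adjusted p 1). It was -2.79 ± 0.29 with the library set as a term (edgeR, adjusted p 0.71, unadjusted p 5.83e-05). With that term DESeq2 gave an adjusted p of 2.5e-11.

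Across all genes, siFmr1 against siNT gave 0 calls of 12187 at an edgeR adjusted p under 0.05 (0%), with 47 genes at an unadjusted p under 0.05 (0.386%). The count was 0 with DESeq2 too (48 unadjusted), and the authors' deposited table held 0 calls, 47 unadjusted and a lowest adjusted p of 0.999978. With the set as a term, edgeR again called 0 and had 223 genes at an unadjusted p under 0.05 (1.83%). Of these, 108 were lower with siFmr1 (0.886%) and 115 higher (0.944%). DESeq2 called 2 genes with that term, Fmr1 and Dr1. The biological coefficient of variation, edgeR's measure of spread between libraries of 1 group, was 39.9% without the set term and 25.4% with it. The difference of the siFmr1 effect between the sets was called for 0 genes (edgeR), with 11 at an unadjusted p under 0.05 (0.0903%). All p-values with the set term take the sets as given.

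Apart from Fmr1, the genes of smallest p with the set term were all lower with siFmr1, and none passed the correction (edgeR, adjusted p 1). Dr1, which encodes a repressor of RNA polymerase II transcription, measured 118 and 45.5 CPM in siNT 1 and 2 and 43.6, 35 and 22.4 CPM in siFmr1 1, 2 and 3. Its log2 fold change was -1.35 ± 0.23, and every siFmr1 library lay below both siNT libraries. Stt3a, the catalytic subunit of an oligosaccharyltransferase, measured 260 and 218 CPM with siNT and 122, 142 and 110 with siFmr1 (-0.98 ± 0.18). Ube2g2, a ubiquitin-conjugating enzyme of protein degradation at the endoplasmic reticulum, measured 127 and 142 CPM with siNT and 71.2, 60.6 and 74.2 with siFmr1 (-0.94 ± 0.18). Emc3, a subunit of the membrane protein complex of that organelle, measured 138 and 153 CPM with siNT and 88.1, 78 and 83.6 with siFmr1 (-0.79 ± 0.18). For Stt3a, Ube2g2 and Emc3 the siNT libraries of both sets were alike and the groups did not overlap.

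The lysosomal enzyme gene Naglu measured 79.3 and 141 CPM with siNT and 49, 40.2 and 63.1 with siFmr1 (-0.97 ± 0.20). Fam92a measured 25.6 and 18.1 CPM with siNT and 11.3, 13.1 and 5.09 with siFmr1 (-1.39 ± 0.28). Neither gene overlapped between the groups. Gpalpp1 (-1.22 ± 0.24) and the small GTPase gene Arl5a (-1.07 ± 0.22) overlapped, with siNT 2 (27 and 28.4 CPM) below siFmr1 1 of the other set (29.9 and 42.3 CPM). Ubl4 measured 97.3 and 91.9 CPM with siNT and 53.5, 46.4 and 42.6 with siFmr1 (-1.02 ± 0.19), but it overlaps the readthrough gene Slc10a3-ubl4, so its counts are uncertain. Without the set term, the 10 genes of smallest p were Ube2g2, Ubl4, Stt3a, Emc3, Naglu, Ap1s1, Dscaml1, Tollip, Myct1 and Prdm9. Of these only Prdm9, a histone methyltransferase known from meiosis, was higher with siFmr1 (3 and 2.95 CPM with siNT, 6.85, 9.63 and 5.28 with siFmr1, 1.28 ± 0.45). Ap1s1, a subunit of a clathrin adaptor, measured 141 and 369 CPM with siNT and 79.3, 92 and 119 with siFmr1 (-1.40 ± 0.45).

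**Figure D1:**
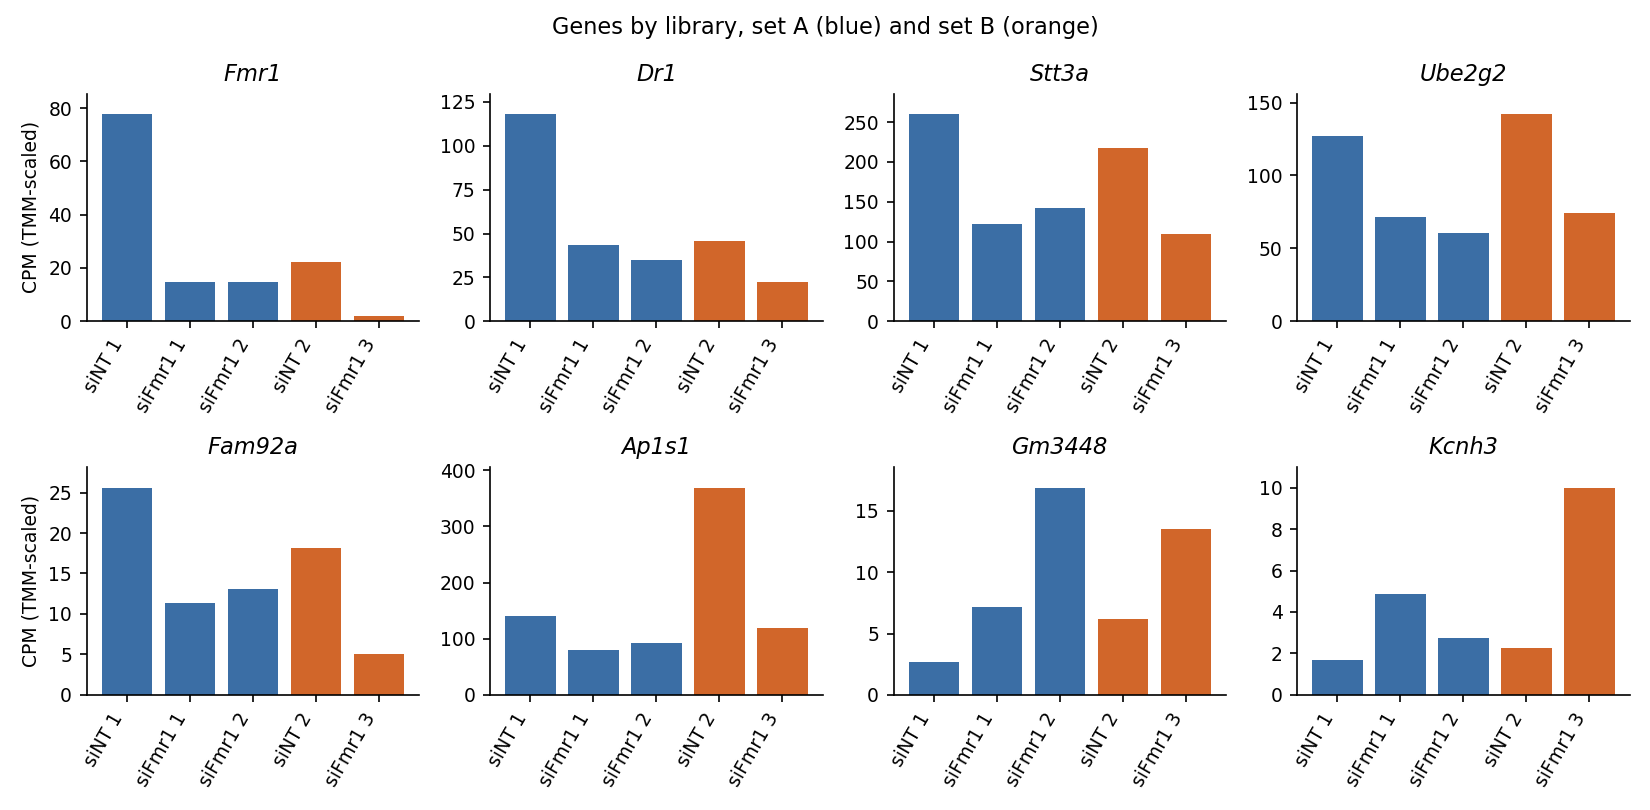
CPM (y axis, linear) of 8 named genes, 1 bar per library, with set A in blue and set B in orange. Fmr1 is lower in each siFmr1 library than in siNT of its set (77.7 against 14.7 and 14.7, 22.4 against 2.12), and Kcnh3 and Gm3448 are higher.

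The relatives of Fmr1 and the muscleblind genes did not differ beyond their spread. Fxr1 measured 230 and 126 CPM in siNT 1 and 2 and 245, 259 and 138 in siFmr1 1, 2 and 3 (with the set term 0.13 ± 0.17, edgeR adjusted p 1). Fxr2 measured 90.7 and 113 CPM with siNT and 91.9, 90.6 and 108 with siFmr1 (-0.02 ± 0.17). Mbnl1 measured 238 and 46.7 CPM with siNT and 229, 175 and 59.9 with siFmr1. Its levels were ordered by set, 4.01-fold higher in set A, and its log2 fold change was 0.12 ± 0.78 without the set term and 0.01 ± 0.23 with it. Within the pairs it was -0.05 for siFmr1 1 and -0.44 for siFmr1 2 against siNT 1, and 0.36 for siFmr1 3 against siNT 2. Mbnl2 measured 102 and 35.2 CPM with siNT and 104, 81.3 and 54.2 with siFmr1 (0.18 ± 0.25 with the set term). The direction of Fxr2, Mbnl1 and Mbnl2 turned when set A alone was fitted (0.03, -0.21 and -0.12).

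Each set holds at least 1 library of each siRNA, so siFmr1 was compared with siNT inside them. At least 2-fold below siNT 1 in siFmr1 1 were 147 genes (1.21%), and 141 were as far above (1.16%). In set B, 114 genes of siFmr1 3 lay at least 2-fold below siNT 2 (0.935%) and 246 above (2.02%). siFmr1 2 against siNT 1 gave 662 below (5.43%) and 704 above (5.78%), more than either closely matched pair. The pairs siFmr1 1 with siNT 1 and siFmr1 3 with siNT 2 share no library, and 45 genes passed 2-fold in the same direction in both. Of these, 18 were lower (0.148%) and 27 higher (0.222%), while 11 passed in opposite directions (0.0903%). Among the 45, the 12 with a mean of at least 50 counts were Fmr1, Dr1, Fam92a, Gpalpp1, Lace1, Matn3 and Myct1, which were lower, and Kcnh3, Gm3448, Sapcd1, Tnfrsf23 and Usp43, which were higher.

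The fit of these 4 libraries with the set as a term, one of 5 fits that each left out 1 library, called 164 of 12162 genes (1.35%), 103 lower with siFmr1 (0.847%) and 61 higher (0.502%). The other fits that left out 1 library called 0 or 1 gene. With 1 residual degree of freedom the fit gave all genes of like abundance the same spread (biological coefficient of variation 12.6%). The fit averages these 2 pairs, so its calls favour genes with 1 direction in both, as 163 of the 164 had. In siFmr1 2, which was left out, 93 of the 164 had the same direction against siNT 1, a library the fit also used. Over all genes that share was 49.4%. The count of 164 therefore rests on leaving out siFmr1 2 and on that shared spread. The median transcript length was 2140.5 bases for the lower genes and 3561 for the higher ones, against 2695 for all genes, and the part of length in these calls was not tested. The genes named from this fit were picked after their values were seen.

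Among called genes with a mean of at least 50 counts, Fmr1 fell most (-2.77 ± 0.22, edgeR adjusted p 1.55e-33). Fam92a fell by 1.48 on the log2 scale (adjusted p 9.33e-08), Dr1 by 1.23 and Ap1s1 by 1.23 (both edgeR adjusted p 9.33e-08). Myct1 fell as well (-1.87, 2.03e-05), from 5.46 CPM in siNT 1 to 1.26 in siFmr1 1 and from 7.97 in siNT 2 to 2.45 in siFmr1 3. Kcnh3, a voltage-gated potassium channel, rose from 1.66 CPM in siNT 1 to 4.89 in siFmr1 1 and from 2.27 in siNT 2 to 10 in siFmr1 3 (1.88, edgeR adjusted p 9.9e-06). It measured 2.76 CPM in siFmr1 2. Gria2, a subunit of AMPA-type glutamate receptors, rose from 7.19 to 11.5 CPM in set A and from 1.03 to 6.05 in set B (1.35, 0.00112), and it measured 18.4 CPM in siFmr1 2. The complement gene C7 rose from 4.53 to 8.11 CPM and from 2.68 to 8.56 CPM (1.24, 0.00398). Tnfrsf23 (1.63, 1.71e-07) and Tnfrsf22 (1.23, 0.000131) also rose, but they are related neighbours on chromosome 7 whose reads may have been shared between them. In siFmr1 2, Tnfrsf23 measured 6.57 CPM, below the 7.79 CPM of siNT 1.

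Of 31 tested cell cycle and DNA replication genes, 7 fell in the 4-library fit (against 0.847% of all genes) and 0 rose, with a list median of -0.50 against 0 for all genes. They were the mitotic kinase Cdk1, the cyclins Ccna2, Ccnb1 and Ccnb2, the mitotic regulators Cdc20 and Birc5, and Tyms, which makes thymidylate. Cdk1 fell from 122 CPM in siNT 1 to 64.3 in siFmr1 1 and from 358 in siNT 2 to 223 in siFmr1 3 (-0.80, edgeR adjusted p 0.0041). siFmr1 2 held 271 CPM of Cdk1, above siNT 1 of its own set. Ccnb1 fell from 239 to 122 CPM and from 457 to 312 CPM (-0.75, adjusted p 0.0117, edgeR), and siFmr1 2 held 452 CPM. The summed CPM of the list was 2615 in siNT 1, 1567 in siFmr1 1 and 6500 in siFmr1 2, and 4973 in siNT 2 and 3984 in siFmr1 3. The siFmr1 library left out held the highest list sum of all 5, while siNT 2 was above it for Cdk1 and Ccnb1. With all 5 libraries and the set term the list median was 0.36, and for siFmr1 2 against siNT 1 it was 1.51, so its direction turned when siFmr1 2 was kept. Mki67, a marker of dividing cells, showed the same order within set A, at 201 CPM in siNT 1, 111 in siFmr1 1 and 801 in siFmr1 2. In set B, siNT 2 held 71 CPM and siFmr1 3 held 105 CPM. In bulk RNA, fewer dividing cells and less of these RNAs per cell cannot be told apart.

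Fewer genes fell in the 4-library fit among cholesterol synthesis genes and targets of TGF-beta and BMP signalling. Of 22 cholesterol synthesis genes 2 fell (against 0.847% of all genes) and 0 rose (list median -0.27, against 0 for all genes). Idi1, an isomerase of the pathway, measured 79.1 and 37.6 CPM in siNT 1 and siFmr1 1 and 91 and 52 CPM in siNT 2 and siFmr1 3 (-0.94, edgeR adjusted p 0.000177). Acat2 was the other (-0.62, 0.0427). In siFmr1 2 neither was lower than in siNT 1, at 98.4 CPM of Idi1 and 107 CPM of Acat2 (104 in siNT 1). Of 11 targets of TGF-beta and BMP signalling 2 fell (again against 0.847%), Id2 (-0.97, 0.0166) and Id3 (-0.77, 0.00586), which encode inhibitors of helix-loop-helix transcription factors. The list median was -0.12. Id4 of the same list was higher in siFmr1 1 than in siNT 1 and in siFmr1 3 than in siNT 2 (log2 differences 0.20 and 0.44). Among 42 splicing regulators and 25 neuronal FMRP target mRNAs, 0 were called in this fit, with medians of 0.05 and 0.17, where 1.35% of all genes were called, so 0 is near that share. Of 16 genes for FMRP and its partner proteins, Fmr1 was the only one called. Igf2r, an imprinted gene for a growth factor receptor, rose (1.01, edgeR adjusted p 0.000807), from 14.8 CPM in siNT 1 to 18.9 in siFmr1 1 and from 10.4 in siNT 2 to 33.1 in siFmr1 3. It measured 12.7 CPM in siFmr1 2, below siNT 1.

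The co-transfection libraries share no sample with the first experiment, and their table was normalized separately, so only differences within each table were compared. There 3657 of 16097 genes were called for siFmr1 pcDNA against siNT pcDNA (22.7%, limma on log2(value + 1), BH adjusted p under 0.05). Normalized counts of Fmr1 were 3090 ± 443 (SD) in the siNT pcDNA group and 594 ± 15.3 in the siFmr1 pcDNA group (log2 fold change -2.37 ± 0.11, limma adjusted p 6.17e-05). Dr1 measured 2940 ± 205 and 1210 ± 32.6 normalized counts (-1.28, limma adjusted p 0.000271). Stt3a (-1.30, 0.000273), Emc3 (-1.16, 0.00033), Ube2g2 (-0.80, 0.000787), Fam92a (-1.69, 0.000449) and Ap1s1 (-0.85, 0.000948) fell there too. Of the 10 genes of smallest p with the set term, 9 were measured there (not Ubl4), and all 9 had the same direction and were called.

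Of the 223 genes at an unadjusted p under 0.05 with the set term, 218 were measured in the co-transfection experiment and 175 had the same direction (80.3%, against 55.4% of all 12099 genes measured in both). Of the 164 genes of the 4-library fit, 160 were measured and 135 had the same direction (84.4%, against 54.3% of 12054 genes). Same direction and called were 89 of the 160 (55.6%, against 17.6%), and 3 were called the other way (1.88%, against 9.17%). By direction, 81 of 101 lower genes and 54 of 59 higher genes kept their sign. Kcnh3 (3.54, limma adjusted p 0.00033), C7 (2.29, 8e-04), Gm3448 (2.10, 0.00054), Gria2 (1.09, 0.00236) and Igf2r (1.30, 0.00095) rose in the co-transfection experiment.

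None of the 7 cell cycle genes that fell in the 4-library fit was called in the co-transfection experiment. There 5 of 31 fell, near the share of all genes (1543 of 12099), and 0 rose, against 1686 of 12099. The list median was -0.18 against 0.01. Of genes outside that list, Skp2 (-1.10, limma adjusted p 0.00039) and Mcm10 (-0.57, 0.00383) fell in both, although siFmr1 2 lay above siNT 1 for each. Of all lower genes of the 4-library fit, 1 was called higher in the co-transfection experiment, Spc24 (0.40, 0.0486). Cdk1 had a log2 fold change of 0.08 (limma adjusted p 0.748) in the co-transfection experiment, Ccnb1 -0.21 (0.183), Cdc20 0.18 (0.153) and Tyms -0.06 (0.799). Idi1 (-1.07, limma adjusted p 0.000682), Acat2 (-0.55, 0.00259) and Id2 (-0.68, 0.0261) fell in both, while Id3 was not called in the co-transfection experiment (-0.46, 0.226). Mbnl1 was at 0.06 (0.715), and Mbnl2 fell by 0.27 on the log2 scale (0.0407). Dscaml1 and Prdm9, named above from the fit without the set term, were at 0.06 (0.824) and 0.06 (0.783). Psrc1, a spindle protein gene that fell in the 4-library fit (-1.13, edgeR adjusted p 0.0212), was at 0.24 (limma adjusted p 0.277), and in siFmr1 2 it measured 8.21 CPM, above the 2.33 CPM of siNT 1.

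**Figure D2:**
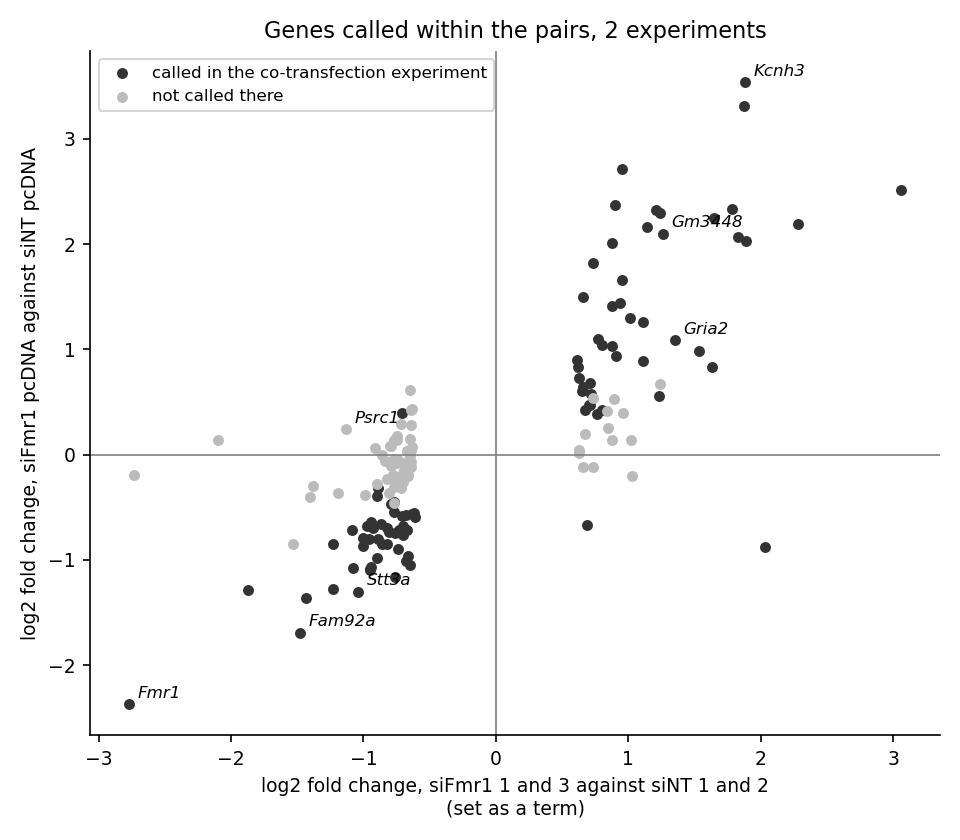
Log2 fold change of siFmr1 against siNT in the 4-library fit (x axis) and in the co-transfection experiment (y axis) for the 160 genes called in that fit and measured in both. Dark points were called in the co-transfection experiment too, and 135 points lie at the lower left or upper right.

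The sets themselves were compared next. The ranges of set A and set B did not overlap for 7701 of the 12187 genes (63.2%). Of these, 1507 were at least 2-fold lower in set B (12.4%) and 993 at least 2-fold higher (8.15%), 2500 in all (20.5%), by the difference of set means on the log2 scale, which was 0.03 in the median over all genes. Higher in set B were lists of the amino acid and stress response driven by the transcription factor ATF4, glycolysis, ribosomal proteins and the respiratory chain. Lower in set B were lists of nuclear noncoding RNAs, splicing regulators and FMRP with its partners.

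Of 29 tested genes of the amino acid and ATF4 response, 28 were higher in set B (against 6251 of all 12187). Of these, 12 were at least 2-fold higher without overlap (against 8.15% of all genes), and the list median was 0.92. The summed CPM of the list was 6786, 7090 and 8921 in siNT 1, siFmr1 1 and siFmr1 2 and 14937 and 12683 in siNT 2 and siFmr1 3. Ddit3, the stress transcription factor CHOP, measured 27.7, 29.7 and 53 CPM in set A and 218 and 151 in set B, a log2 difference of 2.36. Trib3, a pseudokinase induced by ATF4, measured 53.4, 72.8 and 95.6 CPM in set A and 346 and 244 in set B. Cth, which makes cysteine, measured 25, 26.2 and 27.4 CPM in set A and 160 and 98.3 in set B. In all 3, siNT 2 was higher than siFmr1 3, and the lowest set B library was above the highest of set A. Asns, asparagine synthetase, measured 672, 693 and 699 CPM in set A and 1480 and 1150 in set B. Within the sets the list median was 0.06 for siFmr1 1 and 0.37 for siFmr1 2 against siNT 1, and -0.21 for siFmr1 3 against siNT 2. Over all genes these medians were -0.02, 0 and 0.01.

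Promoters of this list were searched for TGATGNAA, a form of the element that ATF4 binds with C/EBP proteins, on both strands from 250 bases before to 50 after the RefSeq start (GRCm38.p6). It was in 8 of the 24 list genes with a promoter in the table (33.3%). Of all genes with a promoter there, it was in 249 of 9268 tested genes (2.69%) and in 1219 of 27025 in all (4.51%). The list genes with a match had a median set difference of 0.94 and the 16 without one 1.06. Shown in 100 bases each are Atf3 and Chac1, the 2 list genes of largest set difference among those with a match before the start site. Capitals mark the match, which is on the reverse strand of the gene. Atf3, a stress transcription factor (7.79, 10.2 and 10.8 CPM in set A, 58.7 and 32 in set B), has it 110 bases before the start in chr1:191183390-191183489 on the minus strand. Chac1, which degrades glutathione (30.7, 39.7 and 75.5 CPM in set A, 196 and 170 in set B), has it 193 bases before the start in chr2:119351003-119351102 on the plus strand.
Atf3: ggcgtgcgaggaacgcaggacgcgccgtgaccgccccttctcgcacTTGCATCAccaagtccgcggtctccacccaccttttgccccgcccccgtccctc
Chac1: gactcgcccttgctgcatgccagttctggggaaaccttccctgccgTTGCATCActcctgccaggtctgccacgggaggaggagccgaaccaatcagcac

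The cytokine gene Gdf15 and the early response gene Ier3 were among the furthest apart. Gdf15 measured 10.4, 7.2 and 44.4 CPM in set A and 142 and 101 in set B, and Ier3 measured 9.65, 11.5 and 24.8 CPM in set A and 140 and 95.7 in set B. For both genes siFmr1 2 was the set A library nearest to set B. Glycolysis and HIF1 target genes were higher in set B in 26 of 27 (median 0.82), against 6251 of all 12187 genes. Of the 27, 10 were at least 2-fold higher without overlap, against 8.15% of all genes. Slc16a3, which exports lactate, measured 197, 180 and 457 CPM in set A and 776 and 618 in set B, and Ldha, lactate dehydrogenase, measured 1140, 1090 and 1720 CPM against 2940 and 2300. Vegfa, another HIF1 target, went the other way, from 131, 130 and 155 CPM in set A to 104 and 120 in set B.

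All 37 ribosomal protein genes were higher in set B without overlap, where 63.2% of all genes did not overlap in either direction. Of the 37, 17 were at least 2-fold higher, against 8.15% of all genes, and the list median was 0.99. The summed CPM of the list was 33645, 33122 and 36255 in set A and 81827 and 55749 in set B. Rps2 of the small ribosomal subunit measured 1760, 1760 and 2340 CPM in set A and 5760 and 3910 in set B. Nuclear genes of the mitochondrial respiratory chain were higher in 29 of 30 (11 at least 2-fold without overlap, again against 8.15%, median 0.86). Among them was Uqcrq of complex III, with 168, 216 and 185 CPM in set A and 572 and 354 in set B. Cell cycle genes had a similar median (0.97), but only 2 of 31 did not overlap between the sets (against 63.2% of all genes), and siFmr1 2 held the highest summed CPM. Rrm2, a subunit of ribonucleotide reductase, measured 20.6, 13.1 and 122 CPM in siNT 1, siFmr1 1 and siFmr1 2 and 89.7 and 78.7 in set B.

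Among nuclear-retained noncoding RNAs and small nucleolar RNA host genes, 12 of 15 were lower in set B (median -0.58), against 5936 of all 12187 genes. Of the 15, 7 were at least 2-fold lower without overlap, against 12.4% of all genes. Malat1, which gathers at nuclear speckles, measured 248, 296 and 217 CPM in set A and 28.3 and 41.3 in set B. Kcnq1ot1, an imprinted RNA that silences its neighbours, measured 4.13, 7.9 and 10.3 CPM in set A and 0.344 and 0.644 in set B. Xist, the RNA of X chromosome inactivation, measured 380, 353 and 644 CPM in set A and 69.5 and 85.4 in set B. The noncoding RNA Tug1 measured 94, 79.8 and 81.3 CPM in set A and 15.5 and 20.6 in set B. In each of these 4 RNAs the highest set B library was below the lowest set A library.

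Splicing regulators were lower in set B in 38 of 42 (median -0.66). Of the 42, 12 were at least 2-fold lower without overlap and 0 as far above, against 12.4% and 8.15% of all genes. The neuronal splicing factor Nova1 measured 43.7, 37.2 and 26.7 CPM in set A and 10.7 in both set B libraries. Qk, which regulates splicing and RNA stability, measured 130, 100 and 105 CPM in set A and 33.5 and 40.1 in set B. Mbnl1 was 4.01-fold higher in set A, and the log2 difference of Mbnl2 was -1.12. Of 16 genes for FMRP and partner proteins, 11 were lower in set B, against 5936 of all 12187 genes (4 at least 2-fold without overlap, against 12.4% of all genes, median -0.74), and Fmr1 itself overlapped between the sets. Of 25 neuronal FMRP targets 20 were lower (7 at least 2-fold without overlap, again against 12.4% of all genes, median -0.46). Sympathetic neuroblast genes were lower in 13 of 20 (median -0.56). Of the 20, 3 were at least 2-fold lower without overlap and 12 did not overlap, near the 12.4% and 63.2% of all genes. Lower members included Gata3 (-1.38) and Isl1 (-1.21), while Mycn (0.08) and Th (0.09), the first enzyme of catecholamine synthesis, overlapped between the sets. Col11a2, a collagen gene, had the widest log2 difference of the genes lower in set B (-3.87), at 14.6, 14.1 and 7.09 CPM in set A and 1.03 and 0.386 in set B. Akap9, a large scaffold protein of the Golgi and centrosome, measured 115, 117 and 120 CPM in set A and 9.48 and 18.1 in set B.

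**Figure D3:**
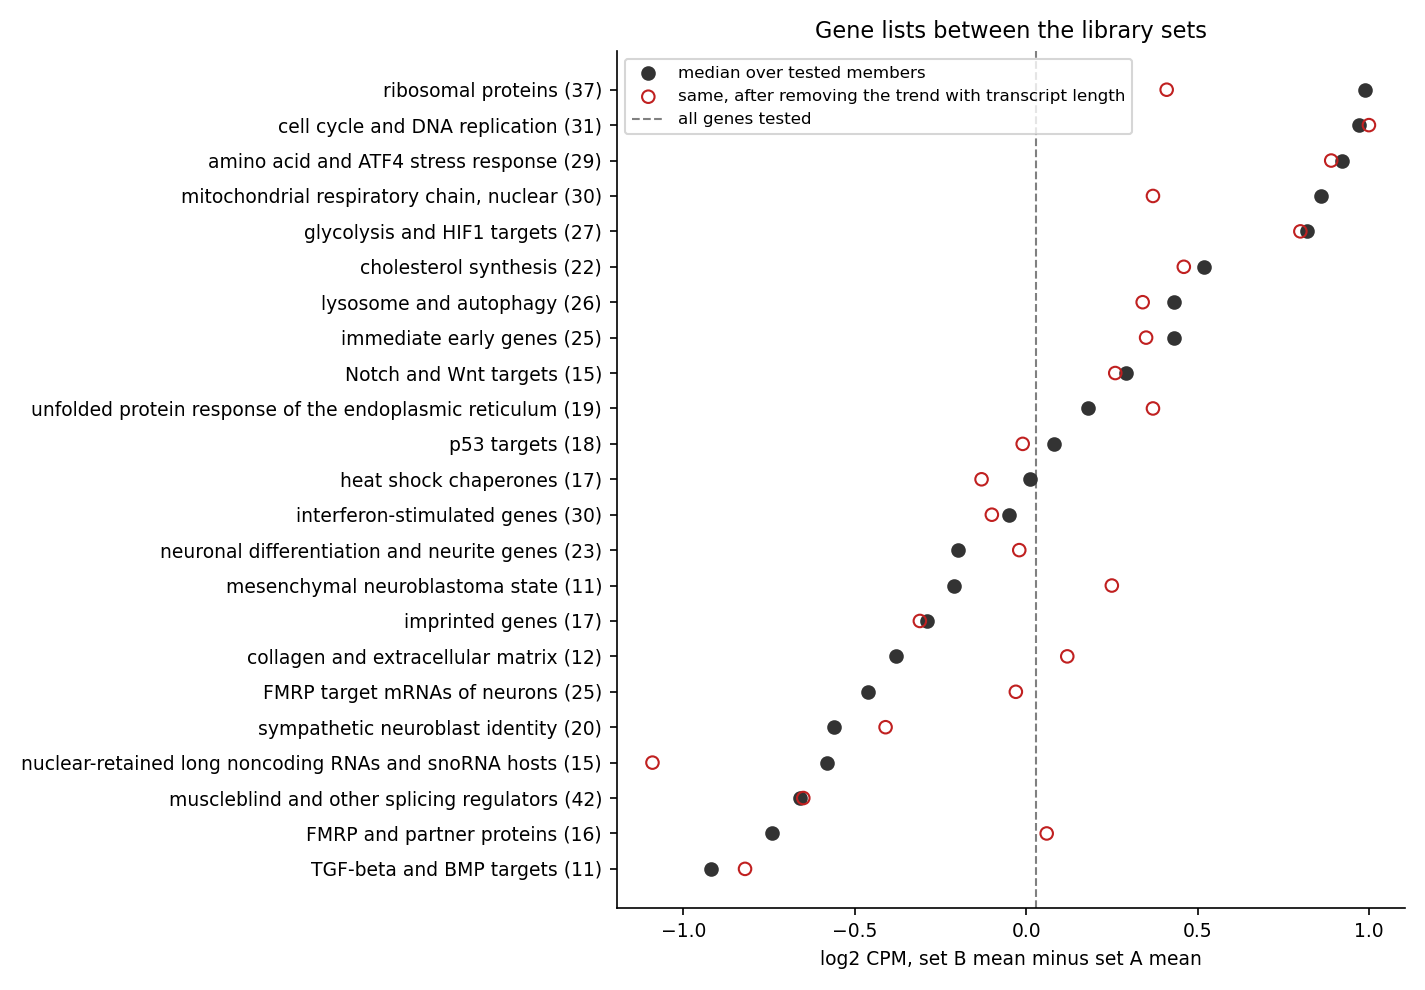
Median log2 difference (set B minus set A) of each gene list (filled) and the same with the trend on transcript length removed (open), with tested members in brackets and a dashed line at all genes. ATF4 genes keep 0.89 of 0.92 with that trend removed, and ribosomal protein genes 0.41 of 0.99.

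Transcript length went along with the set difference. Across 11693 genes with a length in the annotation (95.9% of those tested), the Spearman correlation of the set difference was -0.47 with length and 0.46 with GC content, a description across genes that share the same 5 libraries. The median set difference was 0.76 for 938 genes under 1000 bases, 0.43 for 1000 to 2000, 0.06 for 2000 to 3000, -0.23 for 3000 to 5000 and -0.66 for 1628 genes over 5000 bases. Of the longest genes 30.5% were at least 2-fold lower in set B and 1.54% higher, and of the shortest 3.2% and 27.1%. A trend on length took 21.2% of the variance of the set difference, and length with GC content 37.2%. With the length trend removed, the ATF4 list kept a median of 0.89, glycolysis and HIF1 targets 0.80 and splicing regulators -0.65, which became -0.26 with GC content removed too. Nuclear noncoding RNAs, with a median length of 768 bases, went to -1.09. Lengths are medians over the annotated transcript models of a gene, which can be fragments. Malat1 was given 606 bases although its gene spans chr19:5795690-5802672, so the corrected values of Malat1 and of this list are uncertain. The median of ribosomal proteins moved to 0.41, of the respiratory chain to 0.37, of FMRP and its partners to 0.06 and of neuronal FMRP targets to -0.03, near the 0.06 of all genes. With that trend removed, 975 genes were at least 2-fold lower in set B without overlap and 620 higher, against 1507 and 993 before. The log2 difference moved from -3.53 to -1.29 for Kcnq1ot1, from -2.52 to -1.25 for Xist and from -3.15 to -2.07 for Akap9, and from -2.87 to -3.55 for Malat1.

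The libraries of set B also differed from each other along length. From siNT 2 to siFmr1 3 the median difference was -0.35 under 1000 bases and 0.30 over 5000 (Spearman 0.48 across genes), against 0.05 and -0.06 from siNT 1 to siFmr1 1 (-0.10). siNT 2 was further from siNT 1 than siFmr1 3 was (33.8% and 24.7% of genes at least 2-fold apart). Median TPM (the authors' level per transcript length) over listed genes was 22.42, 22.55 and 21.08 in siNT 1, siFmr1 1 and siFmr1 2 and 11.48 and 15.3 in siNT 2 and siFmr1 3. In 30 pairs of same-group libraries from liver, testis and brain, 0.581% to 7.29% of genes differed at least 2-fold, with an absolute length correlation of 0 to 0.42. In the 4 same-group pairs of these N2a libraries it was 12.4% to 33.7% of genes, with a correlation of 0.04 to 0.49. With the length trend of each library removed, edgeR still called 0 genes for siFmr1 against siNT with the set term (268 at an unadjusted p under 0.05).

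**Figure D4:**
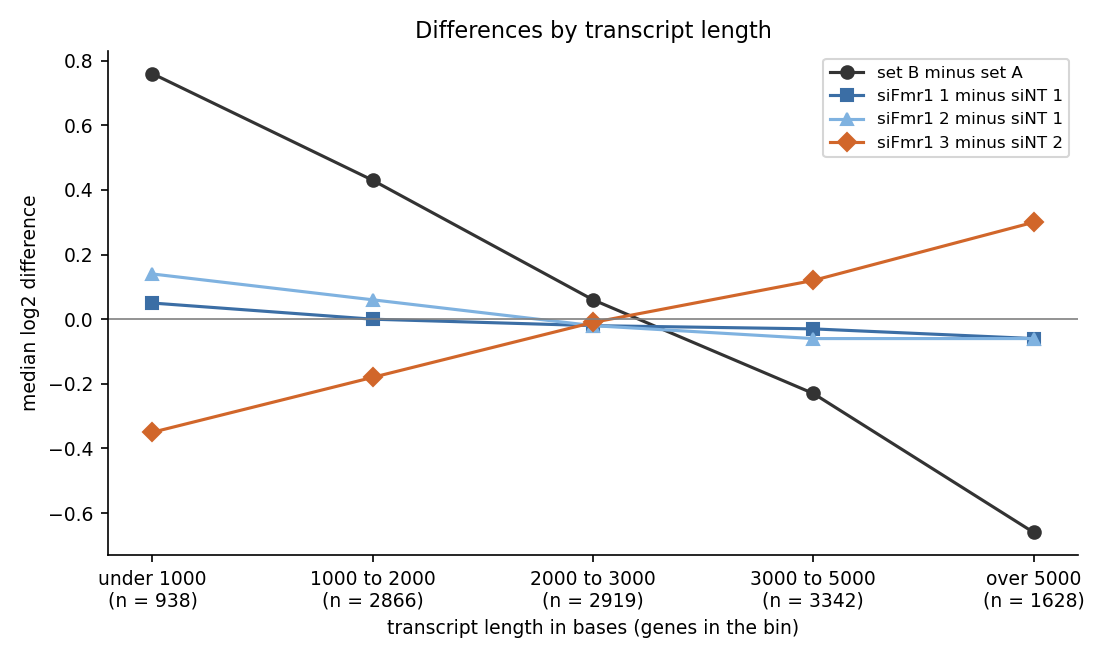
Median log2 difference by transcript length (5 bins, in bases) for set B minus set A and for siFmr1 minus siNT within each pair. The set difference runs from 0.76 to -0.66, the pair in set B from -0.35 to 0.30, and the pair siFmr1 1 with siNT 1 stays between 0.05 and -0.06.

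Splicing was measured as junction reads per event in the deposited rMATS tables. These give 3 entries on one side and 2 on the other, numbers that match siFmr1 and siNT, but the entries carry no names, so library sets could not be entered as a term and differences are given as the side of 3 minus the side of 2. If the sides are siFmr1 and siNT, each holds libraries of both sets, so the spread within a side includes the set difference. Across 6657 skipped exons, deviations from the event mean correlated most between the first entries of the sides (0.07) and between the last (0). Other pairs of entries lay at -0.12 to -0.43, and whether this order follows the library sets was not tested. Entries held 7506227 to 11581824 junction reads of skipped exon events. Of 26654 skipped exons, 22614 could be re-tested from the reads, and a quasi-binomial test with a moderated spread called 0 (BH adjusted p under 0.05 and a difference of at least 10 percentage points), with 1393 at an unadjusted p under 0.05. The authors' deposited table called 220 at the same thresholds (0.825%), 117 higher and 103 lower on the side of 3. Of these, 130 averaged 20 junction reads or more on both sides, as the re-test required, and their lowest adjusted p in the re-test was 0.212.

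The muscleblind transcripts carry an exon of 54 bases that is nearly the same in both genes, shown here because it is the segment whose inclusion is known to affect where the proteins go in the cell. In GRCm38 it lies at chr3:60614683-60614736 in Mbnl1 and chr14:120395712-120395765 in Mbnl2, both on the plus strand and coding, and capitals mark the 8 bases that differ (46 of 54, 85.2%, are the same).
Mbnl1: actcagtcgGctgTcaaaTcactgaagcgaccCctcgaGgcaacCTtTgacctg
Mbnl2: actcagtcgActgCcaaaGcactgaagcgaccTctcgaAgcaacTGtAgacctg

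The Mbnl1 exon was included at 11.7%, 38.7% and 40.8% in the entries of the side of 3 (164, 130 and 60 reads) and 32.6% and 76.6% on the side of 2 (217 and 38 reads). The sides overlapped, and the difference of -24.2 percentage points was not called (adjusted p 0.52). The Mbnl2 exon was at 20%, 23.7% and 44.3% against 17.2% and 52.5%, over 20 to 95 reads. In both genes the last entry of each side was the highest. A 92-base exon of Fxr1 was at 70.9%, 75.1% and 71.4% against 66.9% and 77.7%, with at least 376 reads per entry.

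Among mutually exclusive exons, 1 of 4089 re-tested events was called (0.0245%), against 29 of 4454 in the authors' deposited table (0.651%). It was the exon pair of Pkm, pyruvate kinase of muscle type, whose first exon gives the M1 form and whose second gives the M2 form that prevails in dividing cells. Both exons are 167 bases long and are shown because their choice was the only called event. They lie at chr9:59675029-59675195 and chr9:59675568-59675734 (plus strand, coding), and capitals mark the 64 bases that differ (103, 61.7%, are the same).
First exon: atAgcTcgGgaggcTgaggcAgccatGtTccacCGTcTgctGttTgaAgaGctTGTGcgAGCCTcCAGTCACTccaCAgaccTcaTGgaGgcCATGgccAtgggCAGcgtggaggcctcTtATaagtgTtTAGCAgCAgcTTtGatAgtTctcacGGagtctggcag
Second exon: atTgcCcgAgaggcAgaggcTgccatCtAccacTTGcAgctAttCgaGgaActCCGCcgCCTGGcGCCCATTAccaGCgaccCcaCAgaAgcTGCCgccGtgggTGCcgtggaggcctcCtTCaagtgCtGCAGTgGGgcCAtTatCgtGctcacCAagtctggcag

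The first Pkm exon was used at 65.1%, 54.7% and 62.7% on the side of 3 and 53.2% and 42.4% on the side of 2, over 3746 to 6677 reads per entry. The sides did not overlap, but the lowest entry of the side of 3 was only just above the highest of the side of 2. The difference was 13 percentage points (60.8 ± 5.44% (SD) against 47.8 ± 7.67%, adjusted p 0.0198 in the quasi-binomial re-test). It was called with the middle or the last entry of the side of 3 left out (16.1 and 12.1 points). It was not called without the first entry of the side of 3 (10.9 points, adjusted p 0.0786) or without either entry of the side of 2 (18.4 points, 0.91, and 7.6 points, 0.817, with a lone entry left on that side).

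**Figure D5:**
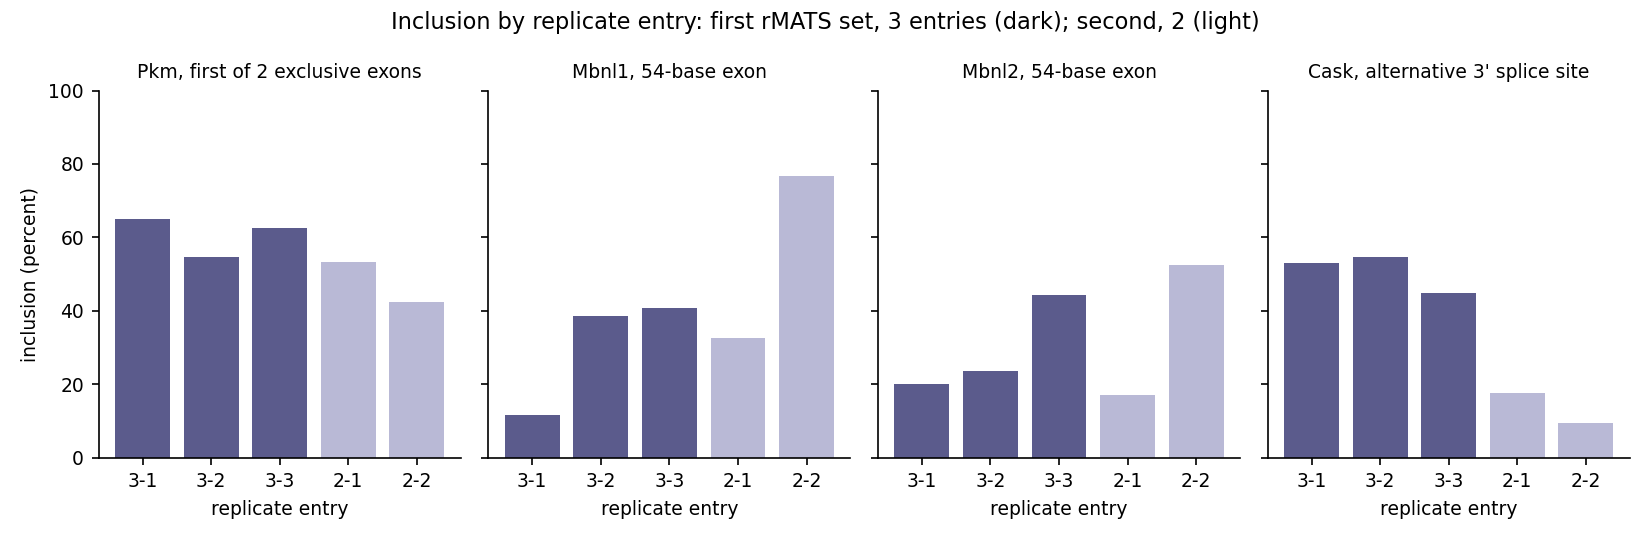
Inclusion level (percent) of 4 events, 1 bar per unnamed entry of the rMATS tables, with the side of 3 dark and the side of 2 light. The first Pkm exon lies at 54.7% to 65.1% on the side of 3 and at 42.4% and 53.2% on the side of 2, and the muscleblind exons overlap.

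Other event types gave 0 calls in the re-test and 20 alternative 3′ splice sites (1.73%), 27 alternative 5′ splice sites (3.11%) and 1 retained intron (0.637%) in the authors' deposited table. An alternative 3′ splice site of Cask, a synaptic scaffold protein, was used at 53.1%, 54.7% and 45% against 17.7% and 9.54%, over 29 to 72 reads (37.3 points, adjusted p 0.488). An alternative 5′ splice site of Zmynd8, a chromatin reader, was at 90.7%, 79.5% and 79.3% against 60.7% and 48.7% (adjusted p 0.955). A retained intron of Clasrp was at 38.5%, 37.9% and 33.3% against 13% and 14.3% (adjusted p 0.37). The sides did not overlap in these 3 events, and none passed the re-test. A skipped exon of Chd5, a chromatin remodeller of neurons, was at 47.1%, 49.8% and 63.8% against 93.9% and 82.8%, and one of the kinesin gene Kif23 at 68.8%, 75.5% and 100% against 43.3% and 52% (both adjusted p 0.52, and in the authors' deposited table FDR 0.0303 and 0.00142).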

How the data were processed

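Groups and replicate numbers came from the sample titles. The members and gene lists were chosen with earlier results of these data known. Read counts and TPM per gene and library were deposited by the authors, per the file headers. The log2 fold changes and p-values in that table are the authors' and were used only for comparison. Co-transfection values are a signal deposited by the authors as normalized counts, by a method not given in the sources used here. Other values, junction reads with their p-values and inclusion differences, come from rMATS tables deposited by the authors. The submitters' processing notes name Trimmomatic 0.39, STAR 2.6.1, RSEM 1.3.1 and DESeq2 1.16.1, without roles, and whether counts are rounded estimates is not stated.

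Genes passed filterByExpr and were scaled by TMM and tested with edgeR 4.0.16 (quasi-likelihood, BH adjustment), with limma 3.58.1 for co-transfection values of mean at least 1, and DESeq2 1.42.0 as an alternative, in R 4.3.3. Levels are CPM on TMM-scaled library sizes, with a prior count of 2 for log2 values. Lengths came from GENCODE M21. Recomputed inclusion differences matched the deposited ones within 0.002 in 100% of events. Events averaging 20 or more junction reads on both sides were re-tested. The genes named were Fmr1, Fxr1, Fxr2, Mbnl1 and Mbnl2, the 10 of smallest p in each comparison with a mean of at least 50 counts, the widest between sets, and list members. Alternatives were another tool, each library left out, set A alone, a replicate block and a length correction added after seeing the data. In the gene tables, 8 count columns of another tissue were given no sample and not used. Scripts were tested on simulated data.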

Additional observations from a re-analysis of the deposited data

How the results depend on the processing

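For siFmr1 against siNT with the library set as a term, the edgeR count of 0 became 2 with DESeq2 and ranged from 0 to 164 when each library was left out (1 without siFmr1 1, 164 without siFmr1 2). The count without the set term stayed at 0 under each alternative run, with Fmr1 between -2.89 and -1.09. Genes at least 2-fold apart between the sets numbered 2500, 3804 by siNT libraries alone, 1565 by siFmr1 libraries alone, 255 at 4-fold, and 2073 to 3476 with each library left out. Filter and scaling were redone for each subset of libraries. With all 5 libraries filtered and scaled together, 4116 genes were at least 2-fold apart between siNT 1 and siNT 2. The 0 re-tested skipped exon calls became 220 with the deposited rMATS FDR and 0 to 71 with each entry left out. Without the set term, leaving out each library gave -0.11 to 0.76 for Fxr1, -0.22 to 0.09 for Fxr2, -0.62 to 1.73 for Mbnl1 and -0.36 to 1.18 for Mbnl2, and set A alone gave 0.03, -0.21 and -0.12 for the last 3. With the set term the ranges were -0.07 to 0.01 for Fxr2, -0.24 to 0.35 for Mbnl1 and -0.14 to 0.62 for Mbnl2, and Mbnl1 was -0.04 with the length trend removed. The cause was not tested. Replicate numbers 1 and 2 are shared by the groups, but the labels do not say that they pair libraries. Deviations of the same-numbered libraries correlated at 0.70 and -0.24. A fit with the replicate block called 0 genes (293 at an unadjusted p under 0.05), with Fmr1 at -1.51 ± 0.50.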

Other observations

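Medians of the remaining lists lay on both sides of that of all genes. Of all 12187 genes, 6251 were higher and 5936 lower in set B. Cholesterol synthesis genes were higher in set B in 19 of 22 (median 0.52) and lysosome and autophagy genes in 23 of 26 (median 0.43). Heat shock chaperones (8 of 17 lower, median 0.01), interferon-stimulated genes (15 of 30 lower, -0.05) and p53 targets (8 of 18 lower, 0.08) had medians near the 0.03 of all genes. TGF-beta and BMP targets were lower in 9 of 11 (median -0.92), among them Id4 (-1.57) and Smad7 (-1.40), and replication-dependent histone genes in 6 of 7 (-0.91). Dbh, which makes noradrenaline, measured 36.1 CPM in siFmr1 2, against 2.4 and 2.1 CPM in siNT 1 and siFmr1 1 and 6.53 and 9.34 CPM in siNT 2 and siFmr1 3.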
